A study of Manihot esculenta with 44 samples.

Results

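The genes described here are the cassava homologues of the Arabidopsis photoreceptors and of the regulators that act directly downstream of them. They were chosen by the Arabidopsis best hit listed for each gene in the deposited tables, which had to be one of 25 named genes of the phytochrome, cryptochrome, phototropin, ZTL, UVR8, PIF, HY5, COP1, SPA, RUP, FHY3 and DET1 families. This gave 27 of the 34120 genes in the tables, and 21 of the 25 Arabidopsis genes had at least 1 cassava gene. PIF4, PIF5, SPA4 and RUP1 were the best hit of no gene. A best hit does not separate close copies, so 2 cassava genes with the same Arabidopsis name are given with their identifiers.

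RNA was sequenced from leaves of the cassava (Manihot esculenta) variety KU50, planted as stem cuttings in a field in Hanoi, where the plants did not flower, and in a field in mountainous Bac Kan, where they flowered, in Vietnam in 2019. There were 11 groups of 4 libraries: Hanoi on 24 May, 13 July, 7 August and 10 October, and Bac Kan on 31 May, 29 June, 26 July, 15 August, 11 September, 5 October and 30 October. All groups are the same variety, with no transgene and no treatment named in the labels. The sample titles fixed each library's field and sampling day. The characteristics disagreed with the titles on the day for 40 samples of 44 and on the site for 16, and were not used. Each site was 1 field, and the hour and weather of sampling are not given in the sources used here, so site, field, day and hour cannot be told apart. Nothing in the labels says that the 4 libraries of a group came from separate plants, and p-values measure only the spread between these libraries.

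Plants read light through a small set of receptors. Phytochromes absorb red and far-red light, cryptochromes, phototropins and ZTL absorb blue light, and UVR8 absorbs UV-B. In Arabidopsis, active phytochromes hold back the PIF growth-promoting transcription factors. Phytochromes, cryptochromes and UVR8 also hold back the COP1 and SPA ubiquitin ligase. In the dark this ligase marks HY5, CONSTANS and other light-response factors for degradation. HY5 and its paralogue HYH then switch on genes of pigment synthesis and photoprotection, and the same ligase and the clock tie light to the time of flowering.

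Levels are FPKM, a fragment count scaled by transcript length and library size, summed over the transcripts of a gene and rescaled to the same total in every library, so they can be compared between genes per length. Fold changes are differences on the log2(level + 1) scale, given with standard errors, and ± marks the SD over the 4 libraries of a group. Calls use limma across 23405 genes with Benjamini-Hochberg adjustment, at an adjusted p under 0.05. The files hold no read counts; the relative depth read from genes at low levels ran from 0.738 to 1.558 times the median library, and in the October pair all Hanoi libraries (1.297 to 1.558) were deeper than all Bac Kan libraries (0.793 to 0.939). The 10 most abundant genes took 13.2 to 15.3% of the total in the Hanoi libraries of 24 May and 8.67 to 9.17% in those of Bac Kan on 31 May. The summed level of 8 leaf mesophyll genes was 9170 to 33046 per library, against at most 58.5 for 11 floral organ genes, of which 2 were at 0 in every library, and at most 2.24 for 7 meristem genes, of which 3 were at 0 throughout. Of the tissue marker lists read, that of leaf mesophyll thus had by far the highest sum in each library. Every group was deposited as a separate table, and all comparisons cross tables.

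All 27 genes passed the filter on low values and none was at 0 in any library. Averaged over the 44 libraries, the blue-light receptor gene CRY1 (MANES_02G152400) had the highest level at 147, followed by COP1 at 96.6 and ZTL at 86.7. The phytochromes were lower, with PHYB at 30.8, PHYE at 22.9 and PHYA at 22.3. The lowest levels were those of DET1 at 6.71, a PIF1 copy (MANES_13G043000) at 5.30, a FAR1 copy (MANES_03G074400) at 4.89 and a PIF3 copy (MANES_09G181800) at 2.87. HY5 varied most between groups: the means of its 11 groups spanned 2.64 on the log2 scale, against a spread of 0.34 (SD) between libraries of a group. PHYB was among the steadiest, with group means spanning 0.70 and a spread of 0.22.

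The 4 Hanoi dates were set against the Bac Kan dates nearest to them, 5 to 13 days apart. In late May, 13 of the 27 genes were called, where 28.7% of all genes were, and 10 of them were higher in Bac Kan (16.1% of all genes) and 3 lower (12.6%). In July 5 genes were called, against 8.84% of all genes; 2 were higher (5.17% of all genes) and 3 lower (3.66%). In August 10 were called, against 14.5%, with 8 higher (6.4%) and 2 lower (8.11%). In October 7 were called, against 24.2%, with 1 higher (10.5%) and 6 lower (13.6%). In order of date, the median difference of the 27 genes was 0.18, -0.13, 0.13 and 0.01, and that of all genes was 0.06, 0.06, -0.06 and -0.05. The libraries of the sites did not overlap for 5, 7, 10 and 11 of the 27 genes, in the same order, where the shares over all genes were 20.9%, 12.6%, 16.9% and 27.8%. The late May count fell to 8 without Bac Kan library 1 or 4 and to 3 when only those groups were fitted. The July count fell to 3 without Bac Kan library 1 or 2 or Hanoi library 2 or 3, and also to 3 when only those groups were fitted or only the most abundant transcripts were used. The calls lay mostly on the Bac Kan side in August and mostly on the Hanoi side in October. The part of depth in the October calls, and of the share of the most abundant genes in those of late May, was not tested. The leaf mesophyll genes also differed between the sites: of 8, 5 were higher and none lower in Bac Kan in late May, none higher and 3 lower in July, 2 higher and none lower in August, and 1 higher and 3 lower in October. Their median differences were 1.25, -0.15, 0.21 and -0.45, and their summed level was 9170 to 14570 in Hanoi and 14184 to 18938 in Bac Kan in late May, 20936 to 33046 and 17002 to 20360 in July, 14603 to 16310 and 15602 to 26094 in August, and 16670 to 21339 and 10036 to 14859 in October. The part of the mesophyll share in the calls on the 27 genes was not tested.

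**Figure D1:**
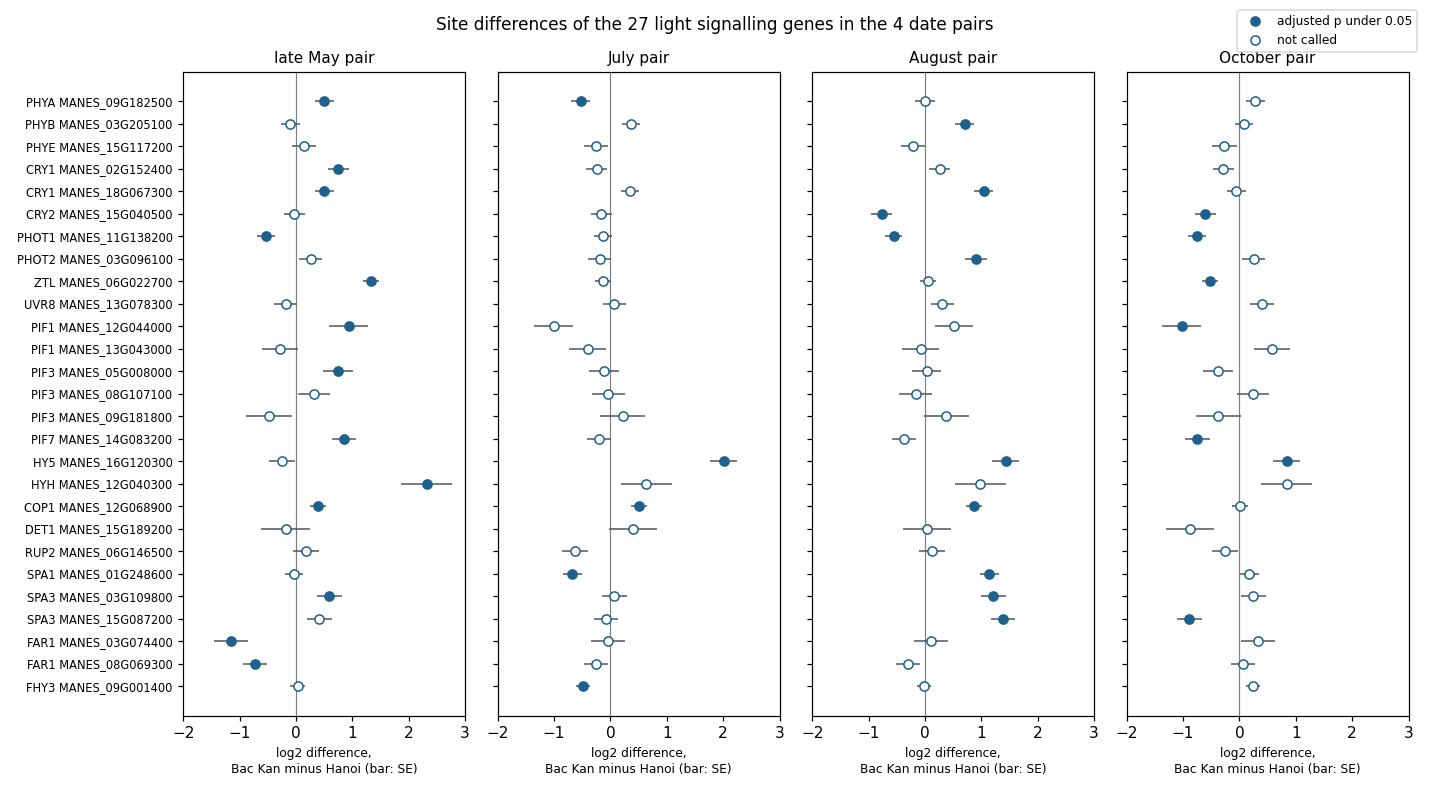
Difference between Bac Kan and Hanoi in each date pair for the 27 genes, on the log2 scale, with its standard error as a bar; filled points were called. HY5 lies to the right of 0 in July, August and October, and the 3 SPA genes lie at 1.14 to 1.38 in August.

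Only 3 genes were called in 3 of the 4 pairs: HY5 and COP1, higher in Bac Kan, and PHOT1, lower there. Another 9 were called in 2 pairs, 8 in 1 pair and 7 in none. How many of all genes were called in as many pairs was not counted, so these numbers describe only the 27 genes. The size of the site difference changed between the pairs for 15 of the 27 genes (limma F test, Benjamini-Hochberg adjustment; 38.1% of all genes). A site difference in 1 pair therefore often did not stand for the season.

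HY5 (MANES_16G120300), a bZIP transcription factor that activates light-responsive genes, was higher in Bac Kan in 3 of the 4 pairs. On 13 July the Hanoi libraries read 10.3, 14.0, 14.1 and 16.1, and on 26 July the Bac Kan libraries read 55.3, 57.9, 65.3 and 50.9. The groups were far apart, and HY5 was 4.22-fold higher in Bac Kan by the ratio of means (2.01 ± 0.24 SE, limma, adjusted p = 3.1e-07). In August the levels were 20.6, 12.8, 14.4 and 35.3 in Hanoi and 72.3, 49.6, 48.0 and 48.0 in Bac Kan, again without overlap (1.44 ± 0.24 SE, limma, adjusted p = 2.8e-05). In October Hanoi had 33.3, 23.5, 30.1 and 28.1 and Bac Kan 41.9, 45.2, 68.0 and 55.3, a smaller difference (0.84 ± 0.24 SE, limma, adjusted p = 0.0082). In late May the 4 Hanoi libraries, at 28.9 to 47.2, overlapped the Bac Kan libraries, at 20.2 to 45.9, and no difference was called (-0.25, 95% interval -0.72 to 0.22). The site difference thus changed between the date pairs (limma F test, adjusted p = 1.0e-05).

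HY5 also changed with date at each site. In Hanoi its mean went from 38.0 ± 7.5 on 24 May to 13.6 ± 2.4 on 13 July and stood at 20.8 ± 10.2 in August and 28.7 ± 4.1 in October (change over dates, limma F test, adjusted p = 2.8e-05). In Bac Kan it went from 33 ± 11.9 on 31 May to 88.9 ± 1.0 on 30 October, when the 4 libraries lay between 87.5 and 89.8. That last group was above every other library of the series, and the rise from the earliest Bac Kan date was called (1.47 ± 0.24 SE, limma, adjusted p = 8.0e-06). The calls on HY5 in July, August and October held under each alternative run.

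HYH (MANES_12G040300), the paralogue that shares targets with HY5, was called in the late May pair only. In late May the Hanoi libraries read 35.7, 20.1, 1.86 and 11.8 and the Bac Kan libraries 52.5, 77.9, 80.3 and 50.7. The lowest Bac Kan library was above the highest Hanoi library, and the difference was called (2.32 ± 0.45 SE, limma, adjusted p = 0.00012), though not when only these groups were fitted (adjusted p = 0.074). In the other pairs the fitted differences were 0.64, 0.98 and 0.84 and none was called. A change of the site difference between pairs was not called either (limma F test, adjusted p = 0.10). Averaged over the pairs, HYH was higher in Bac Kan (1.19 ± 0.23 SE, limma, adjusted p = 8.7e-05).

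UVR8 (MANES_13G078300), the UV-B receptor, was not called in any pair, with differences of -0.18, 0.07, 0.31 and 0.40 in order of date. It changed over the Bac Kan dates (limma F test, adjusted p = 0.0003), from 27.2 ± 3.2 on 31 May to 48.8 ± 4.4 on 30 October. RUP2 (MANES_06G146500), which in Arabidopsis returns UVR8 to its inactive dimer and is itself induced by UV-B through HY5, was called in no pair, and its July difference was -0.63 (95% interval -1.08 to -0.17, limma, adjusted p = 0.085). It rose at both sites, from 17.5 ± 7.0 to 47.2 ± 7.5 in Bac Kan (1.45 ± 0.23 SE, limma, adjusted p = 5.5e-06) and from 14.8 ± 3.8 to 47.1 ± 10.2 in Hanoi (1.62 ± 0.23 SE, limma, adjusted p = 3.7e-07). At the last common month, October, its site difference had an interval of -0.71 to 0.19.

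**Figure D2:**
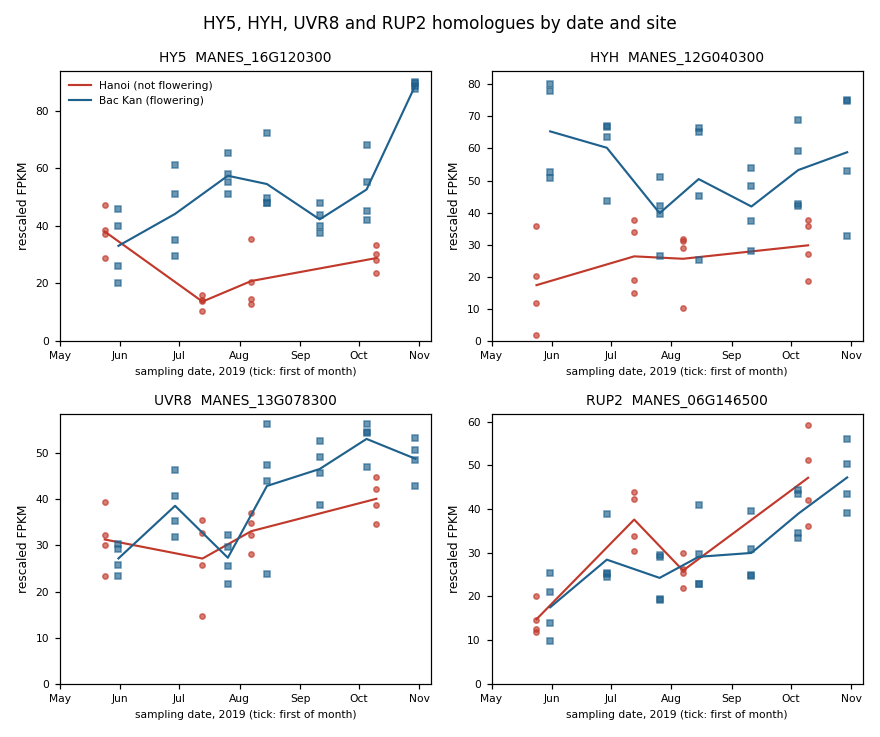
Levels (rescaled FPKM) of HY5, HYH, UVR8 and RUP2 by sampling date; points are libraries, lines join group means. Hanoi HY5 drops to 13.6 on 13 July while Bac Kan HY5 is at 57.4 on 26 July and 88.9 on 30 October; RUP2 means end at 47.2 and 47.1.

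COP1 (MANES_12G068900), the RING-finger subunit of the ubiquitin ligase, was higher in Bac Kan in 3 pairs, with its largest difference in August and none called in October. In July the Hanoi libraries read 80.7, 67.9, 80.3 and 61.7 and the Bac Kan libraries 110, 111, 105 and 87.2. In August the levels were 72.9, 74.0, 54.1 and 67.1 in Hanoi and 116, 127, 132 and 113 in Bac Kan. The sites did not overlap in either month, and the differences were 0.50 ± 0.14 SE (limma, adjusted p = 0.019) and 0.86 ± 0.14 SE (limma, adjusted p = 2.5e-05). In October the means were 99.6 ± 6.8 and 101 ± 16 (0.01, 95% interval -0.27 to 0.29). Hanoi COP1 rose to meet Bac Kan COP1: it was at 73.2, 72.7 and 67.0 on the earlier dates (change over Hanoi dates, limma F test, adjusted p = 0.0034), and no change over the Bac Kan dates was called (adjusted p = 0.15). The tables hold 2 COP1 transcripts, with 58.3% and 41.7% of the level, and with the more abundant one alone the July difference was 0.01 (adjusted p = 1.0) and the August difference 1.14 (adjusted p = 0.063). The July call was also lost without Bac Kan library 1 or 2 or Hanoi library 2 or 4 (adjusted p = 0.058 to 0.081), and that of late May (0.39 ± 0.14 SE, limma, adjusted p = 0.033) without any 1 Bac Kan library or without Hanoi library 1 or 4 (adjusted p = 0.052 to 0.23).

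The genes of the SPA proteins, the kinase-like partners that COP1 needs for activity, had their largest site difference in August. SPA1 (MANES_01G248600) read 31.0, 30.5, 30.4 and 40.6 in Hanoi and 61.6, 66.1, 99.7 and 72.5 in Bac Kan (1.14 ± 0.16 SE, limma, adjusted p = 2.3e-06). The SPA3 copy MANES_03G109800 read 63.0, 45.9, 41.0 and 30.0 in Hanoi and 92.0, 95.5, 108 and 115 in Bac Kan (1.21 ± 0.22 SE, limma, adjusted p = 0.00013). The other SPA3 copy, MANES_15G087200, read 18.8, 13.6, 8.25 and 14.1 in Hanoi and 38.0, 33.5, 33.9 and 38.9 in Bac Kan (1.38 ± 0.22 SE, limma, adjusted p = 1.2e-05). For all 3 genes every Bac Kan library of 15 August was above every Hanoi library of 7 August. Their site differences changed between the pairs (limma F test, adjusted p = 8.8e-07, 0.016 and 2.7e-06).

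In late May SPA3 MANES_03G109800 was called at 0.59 ± 0.22 SE (limma, adjusted p = 0.043), a call lost without Bac Kan library 1, 3 or 4 or Hanoi library 4 (adjusted p = 0.061 to 0.22). In the other pairs the SPA genes differed in direction. In July SPA1 was lower in Bac Kan, at 25.8, 18.3, 28.1 and 25.9 against 39.3, 39.9, 44.4 and 34.2 in Hanoi (-0.68 ± 0.16 SE, limma, adjusted p = 0.0053). With the Bac Kan libraries of 29 June in place of those of 26 July, that difference was -0.17 and not called (adjusted p = 0.57). In October MANES_15G087200 was lower in Bac Kan, at 25.04, 18.9, 23.7 and 14.0 against 36.2, 39.7, 39.4 and 36.0 (-0.89 ± 0.22 SE, limma, adjusted p = 0.0022), while the other 2 SPA genes were not called there. DET1 (MANES_15G189200), a subunit of a related repressor complex, was at 3.94 to 9.26 in the group means and was called in no comparison. Without Bac Kan library 2 its October difference was called (-1.36, limma, adjusted p = 0.018).

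**Figure D3:**
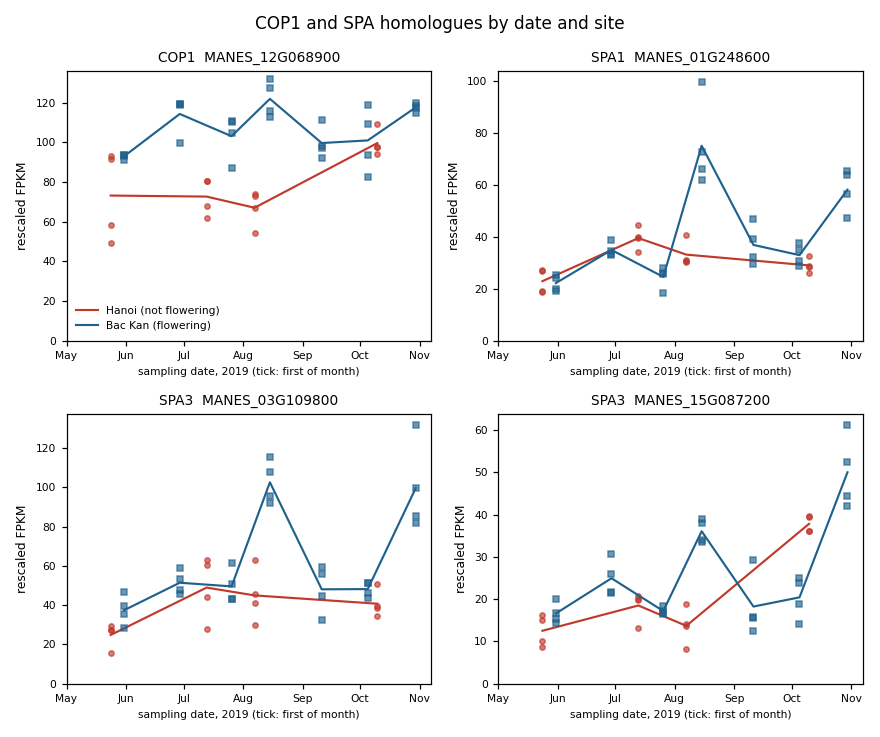
Levels (rescaled FPKM) of COP1, SPA1 and the 2 SPA3 copies by sampling date; points are libraries, lines join group means. The Bac Kan means of the 3 SPA genes are 75.0, 103 and 36.1 on 15 August and 58.1, 99.6 and 50.004 on 30 October; the Hanoi means of 7 August are 33.1, 45.0 and 13.7.

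The August difference of the SPA genes went with a pattern inside the Bac Kan series, picked out after the values were seen and given without a test. On 15 August the 4 Bac Kan libraries were all above the 8 libraries of 26 July and 11 September for 8 of the 27 genes, where 1.73% of all genes showed this. The 8 were SPA1, both SPA3 copies, COP1, both CRY1 copies, PHOT2 and PHYE. None of the 27 was below both neighbouring dates, and 0.769% of all genes were. On 30 October the libraries were all above those of 5 October for 6 genes (SPA1, both SPA3 copies, PHOT2, PIF3 MANES_05G008000 and HY5; 7.9% of all genes) and all below for PIF7 alone (4.45%). SPA1, both SPA3 copies and PHOT2 showed both patterns, as did 0.5% of all genes. PHOT2, for example, read 40.7, 40.2, 38.1 and 35.7 on 26 July, then 96.2, 85.2, 91.3 and 84.4 on 15 August and 69.0, 47.3, 31.9 and 36.8 on 11 September. With only the most abundant transcript of each gene, 5 genes in place of 8 showed the August pattern.

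Some clock genes moved on the same dates, and their part in the pattern was not tested. LHY (MANES_05G015600), a morning transcription factor of the clock, had a mean of 52.6 on 26 July, 104 on 15 August and 51.9 on 11 September in Bac Kan, and reached 150 on 30 October. PRR5 (MANES_05G016200), a later repressor of the clock, was at 32.3, 75.2, 33.6 and 62.9 on these dates. Of the 7 clock genes listed for this purpose, these 2 were above both neighbouring dates on 15 August. On 26 July, 15 August and 11 September the other LHY copy (MANES_01G239000) had means of 11.8, 29.2 and 14.2. The other PRR5 copy (MANES_01G043200) was at 44.4, 87.7 and 110, and GI at 47.3, 98.4 and 110. The TOC1 copies were at 5.82, 7.60 and 10.2 (MANES_06G089800) and 11.5, 15.1 and 16.3 (MANES_14G081500). PRR5 MANES_01G043200, GI and both TOC1 copies thus had higher means on 11 September than on 15 August. In the October pair all 7 clock genes were called, 3 higher and 4 lower in Bac Kan, with LHY MANES_05G015600 at 76.1 against 267 in Hanoi (-1.81 ± 0.24 SE, limma, adjusted p = 2.2e-07).

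The blue-light receptors divided by gene. PHOT1 (MANES_11G138200), a phototropin that steers growth and chloroplast movement towards light, was called lower in Bac Kan in 3 pairs, more than any other receptor. CRY2 was called lower in 2 pairs, though its mean was below that of Hanoi in each pair. In late May PHOT1 read 60.3, 60.6, 51.4 and 60.0 in Hanoi and 38.3, 35.4, 37.1 and 49.6 in Bac Kan (-0.53 ± 0.16 SE, limma, adjusted p = 0.0095). In October it read 79.7, 85.1, 95.1 and 70.1 in Hanoi and 39.9, 50.5, 62.5 and 43.6 in Bac Kan (-0.75 ± 0.16 SE, limma, adjusted p = 0.00041). The sites did not overlap on either occasion. In August the means were 98.2 ± 11.6 and 67.5 ± 16.0 (-0.56 ± 0.16 SE, limma, adjusted p = 0.012), a call lost without Bac Kan library 2 (adjusted p = 0.079) or Hanoi library 2 (adjusted p = 0.052). In July it was not called (-0.13, 95% interval -0.44 to 0.18) but was with the Bac Kan libraries of 29 June (-0.45, adjusted p = 0.049), and a change of the site difference between pairs was not called (limma F test, adjusted p = 0.13).

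PHOT2 (MANES_03G096100), the phototropin that directs the avoidance of strong light, took the other direction in August. The Hanoi libraries read 76.1, 53.1, 32.1 and 37.8 against the Bac Kan values of 84.4 to 96.2 given above, without overlap (0.91 ± 0.20 SE, limma, adjusted p = 0.0012). In the other pairs its differences were 0.26, -0.19 and 0.25 and not called. When only these groups were fitted the August call was lost (adjusted p = 0.060).

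ZTL (MANES_06G022700), a blue-light receptor and F-box protein that degrades clock proteins in Arabidopsis, had the smallest p of the 27 genes in late May. It read 43.2, 55.2, 45.6 and 30.3 in Hanoi and 91.9, 101, 126 and 117 in Bac Kan, a wide gap (1.32 ± 0.14 SE, limma, adjusted p = 3.7e-09). In October the order was turned, at 121, 110, 112 and 115 in Hanoi and 83.4, 74.6, 79.2 and 80.0 in Bac Kan (-0.52 ± 0.14 SE, limma, adjusted p = 0.0054). In July and August the differences were -0.13 and 0.05. The change of the site difference had the smallest p of the 27 genes (limma F test, adjusted p = 1.5e-08). In Hanoi ZTL rose from 43.6 ± 10.3 to 114 ± 5 (1.4 ± 0.14 SE, limma, adjusted p = 2.4e-10), while in Bac Kan it was at 109 ± 15 and 90.7 ± 8.2 on the earliest and latest dates (-0.26, adjusted p = 0.20).

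Among the cryptochromes, which in Arabidopsis restrain stem growth in blue light and hold back COP1, the 2 CRY1 copies and CRY2 differed. CRY1 MANES_18G067300 read 27.9, 32.4, 35.2 and 44.3 in Hanoi in August and 77.5, 76.4, 67.7 and 66.9 in Bac Kan, without overlap (1.04 ± 0.16 SE, limma, adjusted p = 1.3e-05). Its 2 transcripts carried 54.6% and 45.4% of the level, and with the more abundant one alone the difference was 0.99 (adjusted p = 0.089). Its late May call (0.50 ± 0.16 SE, limma, adjusted p = 0.019) was lost without Bac Kan library 1 or 4 or Hanoi library 2 or 4 (adjusted p = 0.058 to 0.080). CRY1 MANES_02G152400 was called in late May only, at 78.2 ± 34.8 in Hanoi and 125 ± 20 in Bac Kan (0.75 ± 0.18 SE, limma, adjusted p = 0.0018). It rose in Hanoi to 203 ± 17 in October (1.46 ± 0.18 SE, limma, adjusted p = 3.0e-08).

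CRY2 (MANES_15G040500), the cryptochrome best known for promoting flowering in long days in Arabidopsis, was lower in the flowering field in August and October. In August the Hanoi libraries read 30.2, 38.4, 29.3 and 30.7 and the Bac Kan libraries 15.4, 19.7, 20.007 and 18.7 (-0.77 ± 0.19 SE, limma, adjusted p = 0.0035). In October Hanoi read 52.0, 40.1, 42.6 and 39.4 and Bac Kan 19.7, 25.4, 32.8 and 38.0 (-0.60 ± 0.19 SE, limma, adjusted p = 0.016). The groups did not overlap, but the October call was lost without Bac Kan library 1 (adjusted p = 0.10) or Hanoi library 1 (adjusted p = 0.067). CRY2 rose over the Hanoi season (0.90 ± 0.19 SE, limma, adjusted p = 0.00017), and no change over the Bac Kan dates was called (limma F test, adjusted p = 0.072).

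**Figure D4:**
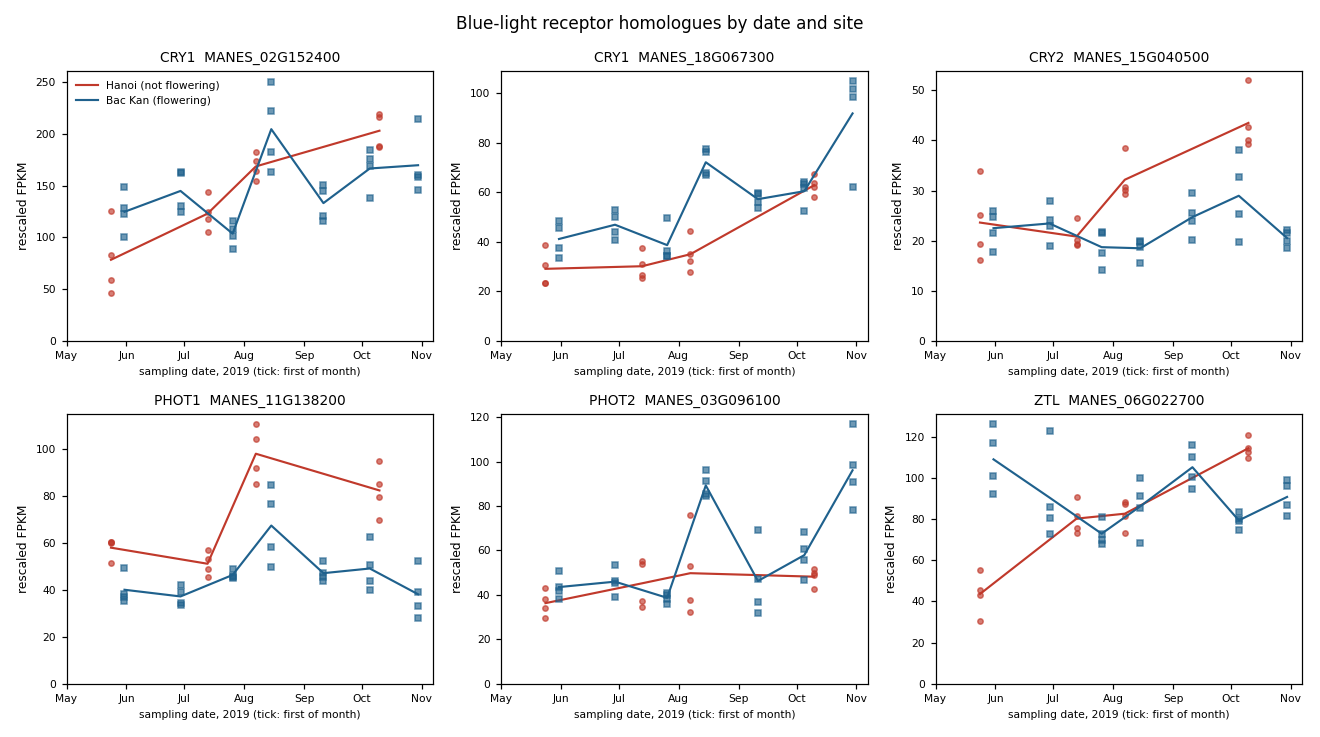
Levels (rescaled FPKM) of the cryptochrome, phototropin and ZTL genes by sampling date; points are libraries, lines join group means. PHOT1 in Hanoi reaches 98.2 in August against 67.5 in Bac Kan, PHOT2 stands at 89.3 on 15 August in Bac Kan, and ZTL climbs from 43.6 to 114 in Hanoi.

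Of the phytochromes, PHYA was called in 2 pairs, PHYB in 1 and PHYE in none. PHYB (MANES_03G205100), the main red-light receptor of green tissue, was called in August, at 25.05, 22.5, 25.5 and 27.6 in Hanoi and 42.7, 41.1, 45.1 and 37.2 in Bac Kan (0.70 ± 0.16 SE, limma, adjusted p = 0.0020). The groups lay well apart, and in the other pairs the differences were -0.10, 0.37 and 0.08. PHYE (MANES_15G117200), another light-stable phytochrome, was called in no pair and changed over the Hanoi dates, from 17.7 ± 7.5 in May to 36.5 ± 12 in August (limma F test, adjusted p = 0.00098).

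PHYA (MANES_09G182500), the far-red sensor that is degraded in light, was called higher in Bac Kan in late May (0.50 ± 0.17 SE, limma, adjusted p = 0.024) and lower in July (-0.53 ± 0.17 SE, limma, adjusted p = 0.044). In July the Bac Kan libraries read 10.1, 10.8, 11.2 and 12.6 and the Hanoi libraries 15.3, 21.9, 17.5 and 12.6, so the groups all but touched. Both calls were fragile: the July difference turned to 0.22 with the Bac Kan libraries of 29 June (adjusted p = 0.45), and it was lost without Bac Kan library 1, 2 or 3 or Hanoi library 1, 2 or 3 (adjusted p = 0.054 to 0.19). The late May call was lost without Bac Kan library 2, 3 or 4 or Hanoi library 1 or 2 (adjusted p = 0.052 to 0.14). Within Bac Kan PHYA went from 11.2 ± 1.1 on 26 July to 31.8 ± 4.2 on 5 October, and the change over dates there was called under each alternative run (limma F test, adjusted p = 1.5e-07).

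The PIFs are bHLH factors that active phytochromes hold back. Of the 6 homologues, 3 were called higher in Bac Kan in late May (16.1% of all genes) and 2 lower in October (13.6%). The 3 late May calls were each lost under an alternative run given below. PIF7 (MANES_14G083200), which drives shade-induced growth in Arabidopsis, read 33.8, 47.3, 35.4 and 43.2 in Hanoi and 74.5, 53.1, 73.3 and 93.9 in Bac Kan in late May (0.85 ± 0.22 SE, limma, adjusted p = 0.0026). In October it read 95.7, 99.4, 105 and 106 in Hanoi and 50.1, 73.8, 63.6 and 55.3 in Bac Kan (-0.75 ± 0.22 SE, limma, adjusted p = 0.0092). The groups were apart on both occasions and in opposite order, and the site difference changed between pairs (limma F test, adjusted p = 0.00042). With only the most abundant of its 4 transcripts, which carried 55.7% of the level, the late May difference was 0.33 and not called (adjusted p = 0.42).

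PIF7 changed in opposite directions over the sampled seasons of the sites. In Hanoi it rose from 39.9 ± 6.4 on 24 May to 102 ± 5 on 10 October (1.34 ± 0.22 SE, limma, adjusted p = 3.7e-06). In Bac Kan it fell from 73.7 ± 16.6 on 31 May to 23.6 ± 2.9 on 30 October, where the libraries read 20.4, 24.2, 22.6 and 27.3 (-1.58 ± 0.22 SE, limma, adjusted p = 4.4e-07). The last Bac Kan date has no Hanoi partner, so the 2 changes span different dates and their difference was not tested.

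PIF1 (MANES_12G044000), best known for holding back seed germination, read 24.3, 25.04, 24.1 and 24.99 in Hanoi in October and 17.1, 6.70, 12.01 and 12.7 in Bac Kan (-1.03 ± 0.34 SE, limma, adjusted p = 0.023). The groups did not overlap, but without Bac Kan library 2 the call was lost (adjusted p = 0.12). PIF3 (MANES_05G008000), a growth promoter of seedlings, changed by season more than by site. Its mean went from 7.99 ± 4.66 to 32.7 ± 4.8 in Hanoi (2.09 ± 0.26 SE, limma, adjusted p = 3.1e-08) and from 12.4 ± 2.3 to 33.6 ± 6.3 in Bac Kan (1.37 ± 0.26 SE, limma, adjusted p = 0.00011). The late May calls of PIF1 (0.93, adjusted p = 0.035) and PIF3 (0.75, adjusted p = 0.029) were each lost when only those groups were fitted (adjusted p = 0.20 and 0.32). They were also lost without Bac Kan library 1 or 4 or Hanoi library 3 or 4 for PIF1 (adjusted p = 0.058 to 0.23), and without Bac Kan library 1 or 2 or Hanoi library 2 for PIF3 (adjusted p = 0.070 to 0.29). The other PIF3 copies and PIF1 MANES_13G043000 were called in no pair.

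**Figure D5:**
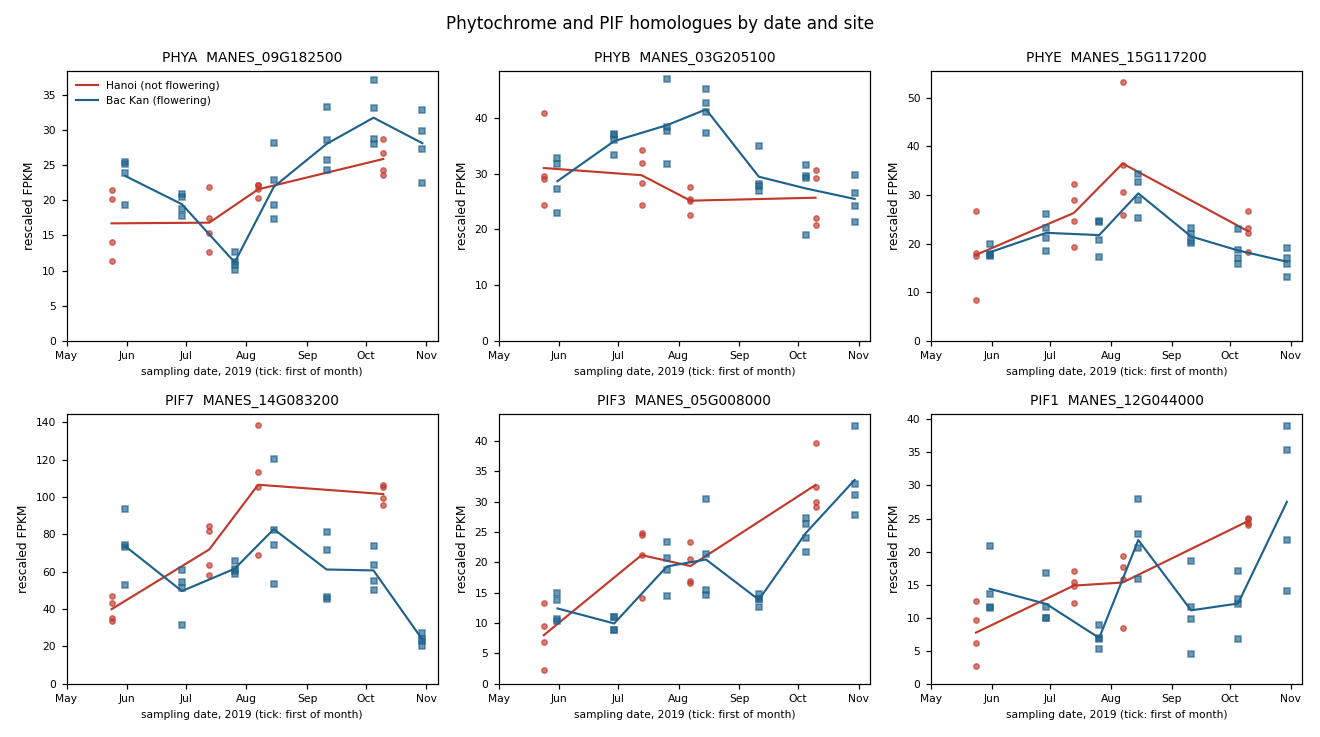
Levels (rescaled FPKM) of the 3 phytochrome genes and of PIF7, PIF3 and PIF1 by sampling date; points are libraries, lines join group means. PIF7 climbs in Hanoi to 102 and drops to 23.6 in Bac Kan on 30 October; PIF3 climbs at both sites, and PHYB is higher in Bac Kan in August (41.5 against 25.1).

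FHY3 and FAR1 are transposase-derived transcription factors that in Arabidopsis enable the nuclear import of PHYA. FHY3 (MANES_09G001400) was lower in Bac Kan in July, at 23.6, 26.3, 29.5 and 25.6 against 36.2, 33.2, 43.5 and 36.3 in Hanoi (-0.49 ± 0.13 SE, limma, adjusted p = 0.011). The groups did not overlap, but the call was lost with the Bac Kan libraries of 29 June (adjusted p = 0.13) or without Hanoi library 3 (adjusted p = 0.053). FAR1 MANES_08G069300 read 14.5, 17.8, 20.2 and 23.1 in Hanoi in late May and 8.42, 12.02, 13.1 and 10.6 in Bac Kan (-0.72 ± 0.21 SE, limma, adjusted p = 0.0086). The low FAR1 copy MANES_03G074400 was also lower then, at 2.14 ± 0.81 against 6.18 ± 2.22 (-1.16 ± 0.31 SE, limma, adjusted p = 0.0037). All 3 rose over the Bac Kan season, FHY3 from 36.0 ± 1.7 to 55.8 ± 4.2 (0.62 ± 0.13 SE, limma, adjusted p = 0.00028), and none was called between the earliest and latest Hanoi dates.

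Most of the genes changed with date at each site. Over the 7 Bac Kan dates 20 of the 27 changed (limma F test; 44.8% of all genes), and over the 4 Hanoi dates 17 did (50.4%). Between the earliest and latest date 13 were called in Bac Kan, 12 of them higher and 1 lower (25.9% of all genes called, 16.1% higher and 9.8% lower), and 15 in Hanoi, 14 of them higher and 1 lower (42.5% called, 25.3% higher and 17.2% lower). The median change of the 27 genes was 0.44 (Bac Kan) and 0.49 (Hanoi), against 0.10 and 0.13 over all genes. Scaling by the median ratio moved the median of all genes by -0.10 and -0.11, and the share of all calls that were higher went from 62.1% to 48.8% in Bac Kan (52.2% with FPKM as deposited) and from 59.5% to 51.6% in Hanoi. Under that scaling 14 of the 27 genes were called in Bac Kan and 13 in Hanoi, beside 5644 and 9713 of all genes. Without it, 6060 and 9952 of all genes were called. The split of the 27 genes into higher and lower under that scaling is not given here.

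Genes linked to the output of these regulators were read from lists. The list of HY5 and UV-B output also names BBX (B-box) transcription factors and MYBL2, so not every gene on it need be a target. Of its 24 tested homologues, 12 were higher in Bac Kan and none lower in late May. In July 2 were higher and 1 lower, in August 10 higher and 2 lower, and in October 11 higher and 2 lower. Of all genes, 16.1% were higher and 12.6% lower in late May, 5.17% and 3.66% in July, 6.4% and 8.11% in August, and 10.5% and 13.6% in October, so the July count was near the share of all genes. The median difference of the 24 genes averaged over the pairs was 0.68, against 0.00 over all genes. In August SIG5 (MANES_14G018500), a plastid sigma factor, was at 475 in Bac Kan and 64.3 in Hanoi (2.98 ± 0.28 SE, limma, adjusted p = 7.1e-10). The photolyase gene PHR1 (MANES_01G072400), which repairs UV damage in DNA, was at 73.8 and 25.1 (1.53 ± 0.19 SE, limma, adjusted p = 1.5e-07). In October the flavonoid gene F3H (MANES_02G104700) was at 113 and 3.5 (4.68 ± 0.38 SE, limma, adjusted p = 5.7e-12).

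Of 9 tested homologues of shade and PIF targets, 2 were higher and 2 lower in Bac Kan in late May, 2 higher and 1 lower in July, none higher and 1 lower in August, and 1 higher and 2 lower in October. Beside the shares of all genes called (28.7%, 8.84%, 14.5% and 24.2%), the counts of August and October were near the share of all genes. HB2 is a homeobox factor induced by shade. The copy MANES_02G041800 was at 34.2 in Bac Kan and 13.3 in Hanoi in late May (1.33 ± 0.24 SE, limma, adjusted p = 4.9e-05), and at 25.2 and 70.2 in October (-1.5 ± 0.24 SE, limma, adjusted p = 8.6e-06). The auxin-response repressor IAA29 (MANES_14G115100) was at 35.3 and 2.69 in late May (3.43 ± 0.30 SE, limma, adjusted p = 3.5e-11). PAR1 (MANES_02G084300) was lower then, at 0.51 and 11.6, though the libraries of the sites overlapped (-2.82 ± 0.77 SE, limma, adjusted p = 0.0049). CKX5 MANES_18G021600 was also lower in late May, at 0.14 and 2.92 (-1.71 ± 0.36 SE, limma, adjusted p = 0.00032). HB2 MANES_01G084500 and IAA29 MANES_06G048600 were not called in late May. In July CKX5 MANES_05G154200 was lower, at 10.9 and 70.4 (-2.6 ± 0.46 SE, limma, adjusted p = 0.00018). IAA29 MANES_14G115100 was higher in July, at 26.1 and 7.45 (1.70 ± 0.30 SE, limma, adjusted p = 0.00014). IAA19 (MANES_11G051300) was also higher then, at 4.11 and 0, though the libraries of the sites overlapped (1.78 ± 0.46 SE, limma, adjusted p = 0.00997). In bulk leaf RNA, fewer cells of a type and less RNA per cell cannot be told apart.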

How the data were processed

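Total RNA from leaves was turned into libraries that were sequenced as pairs, per the labels. The deposited values are FPKM per transcript, computed by the authors; the submitters' processing notes name TopHat2, and its version, the quantifier and the genome build are not given in the sources used here. A further column, 1 in all, repeats a library of another group at each of 41491 transcripts and was not used. Here FPKM of 41491 transcripts was summed per gene identifier (34120 genes), rescaled to 1000000 per library and put on the log2(value + 1) scale. The 23405 genes that reached 1 in 4 or more of the 44 libraries were kept. limma 3.58.1 in R 4.3.3 fitted all 11 groups with a trend in the variance, two-sided, with Benjamini-Hochberg adjustment over all genes tested at 0.05. Tested on simulated data for the late May pair (23405 genes), it recovered 52 of 100 genes changed by 1 and 92 of 100 changed by 2 on the log2 scale, with 6 false calls. Only 200 genes were changed there, while 28.7% of all genes were called in the real late May pair. The adjusted cut-off depends on that share, so these figures need not hold for the real data. The column names carry no replicate number, so library numbers are only places in a table.

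Relative depth was the mode of ratios between libraries over 8502 genes of 1 transcript with a mean FPKM under 2. No interval from counts can be given. The 27 genes, the gene lists and the tests were chosen with earlier results of these data known. Values per library are given for genes with a called difference of at least 1 (log2), a mean of at least 5 and no overlap in a pair, and for the smallest p of each role group in the mean of pairs and the changes between pairs and over dates; from the lists, at most 4 called genes per comparison with the smallest p. Values of CRY2, FAR1, SPA3, RUP2 and of pairs beyond these rules were added after values were seen. Alternatives were other pseudocounts, filters, scalings, transcripts, date pairs, fits of only the groups compared and leaving out each library. Gene coordinates were not used here.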

Additional observations from a re-analysis of the deposited data

Results flagged for a closer look

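Among the 20 genes given in detail, 220 groups of 4 libraries were checked for a library far from the other 3, and 13 held one. Chance flags about 1 in 20 such groups. The level of that library was 99.8 for COP1 in Bac Kan on 29 June, the lowest of its group. On 15 August it was 72.3 for HY5 in Bac Kan, the highest. For HYH it was 43.5 in Bac Kan on 29 June and 10.4 in Hanoi on 7 August, each the lowest. SPA1 read 40.6 in Hanoi on 7 August, the highest, and the SPA3 copies read 15.4 in Hanoi on 24 May (MANES_03G109800) and 13.3 in Hanoi on 13 July (MANES_15G087200), the lowest. For CRY1 MANES_18G067300 it was 49.6 in Bac Kan on 26 July, the highest, and 62.2 on 30 October, the lowest. PHOT1 read 51.4 in Hanoi on 24 May, the lowest. PHYB read 34.9 on 11 September and PHYE 19.9 on 31 May in Bac Kan, and FHY3 44.9 in Hanoi on 7 August, each the highest.

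The difference between the sites changed between the 4 date pairs for 15 genes (limma F test, Benjamini-Hochberg adjustment over all genes). The adjusted p was 1.5e-08 for ZTL, 8.8e-07 for SPA1, 2.7e-06 for SPA3 MANES_15G087200 and 1.0e-05 for HY5. It was 0.00042 for PIF7, 0.00087 for PIF1 MANES_12G044000, 0.0024 for CRY1 MANES_18G067300, 0.0034 for CRY1 MANES_02G152400 and 0.0043 for PHYA. It was 0.0072 for COP1, 0.0092 for FHY3, 0.016 for PHOT2, 0.016 for SPA3 MANES_03G109800, 0.022 for FAR1 MANES_03G074400 and 0.023 for PHYB.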

How the results depend on the processing

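Of 270 results on single genes (27 genes, 10 comparisons), 125 were called, and 78 of these were called in every setting run. Fitting only the groups compared ended 22 of the calls, the most abundant transcript alone 13 and median-ratio scaling 7. Fitting only the groups compared left 3 of 13 genes called in late May and 3 of 5 in July. The most abundant transcript alone left 3 in July and gave 5 genes in place of 8 above both neighbouring dates on 15 August. Over libraries left out in turn, the counts ran from 8 to 13 in late May (8 without Bac Kan library 1 or 4) and from 3 to 6 in July (3 without Bac Kan library 1 or 2 or Hanoi library 2 or 3). They ran from 9 to 10 in August and 6 to 7 in October, and from 8 to 10 for the August pattern. For the mean of the pairs, 10 of the 27 genes were called, against 25.2% of all genes, and 6 were called without the August pair. In limma with the 11 date means as samples, 0 of the 27 were called and 4 had an unadjusted p under 0.05. That fit set all Bac Kan dates, also those without a Hanoi partner, against all Hanoi dates. Of all 23405 genes, 6 were called in that fit and 2536 had an unadjusted p under 0.05. PHYA in July turned from -0.53 to 0.22 with the Bac Kan libraries of 29 June. No paired analysis was possible because the columns carry no replicate number, so the fit with a replicate block was not run. The spread between libraries of a group (SD, log2) was widest for HYH at 0.67, DET1 at 0.62 and PIF3 MANES_09G181800 at 0.57, and the part of depth in it was not tested.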

Other observations

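Partners of the receptors were read from 3 further lists. Of 25 tested homologues of phytochrome and cryptochrome partners, 5 were higher and 3 lower in Bac Kan in late May, 1 was higher in July, 4 were higher and 1 lower in August, and 3 were higher and 6 lower in October. Of all genes 28.7%, 8.84%, 14.5% and 24.2% were called in these pairs, and the counts of late May and July were near or under those shares. TZP (MANES_15G037000), a zinc-finger partner of phytochromes, was higher in 3 pairs, at 16.3 against 6.06 in late May (1.34 ± 0.22 SE, limma, adjusted p = 8.0e-06), 34.7 against 7.96 in August (2.01 ± 0.22 SE, limma, adjusted p = 9.0e-09) and 24.7 against 8.38 in October (1.47 ± 0.22 SE, limma, adjusted p = 1.9e-06). BIC1 MANES_09G055700, an inhibitor of cryptochromes, was at 427 against 170 in July (1.31 ± 0.25 SE, limma, adjusted p = 0.00039) and 409 against 138 in August (1.64 ± 0.25 SE, limma, adjusted p = 5.8e-06). CIB1 (MANES_11G086600), a bHLH partner of CRY2 that promotes flowering in Arabidopsis, was lower in the flowering field, at 80.5 against 293 in August (-1.85 ± 0.23 SE, limma, adjusted p = 2.1e-07) and 29.4 against 89.1 in October (-1.61 ± 0.23 SE, limma, adjusted p = 1.4e-06). CRY2 was lower in the same 2 pairs.

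Of 13 tested homologues of phototropin partners, 5 were higher and none lower in Bac Kan in late May, none higher and 2 lower in July, 2 higher and 1 lower in August, and none higher and 3 lower in October, against the shares of all genes given above. CHUP1 (MANES_06G073200), which anchors chloroplasts to actin, was at 469 against 166 in late May (1.5 ± 0.18 SE, limma, adjusted p = 4.3e-08) and at 616 against 1314 in October (-1.10 ± 0.18 SE, limma, adjusted p = 1.4e-05). Of 20 tested homologues of the DET1 complex, CUL4 and the COP9 signalosome, the machinery that works beside COP1, 3 were higher and 1 lower in late May and 1 was higher in October, both counts under the shares of all genes. In July and August limma called 0 of the 20, and 3 and 1 had an unadjusted p under 0.05.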
